A study of Mus musculus with 6 samples.

Results

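Genes of the BCL2 family were examined in 4T1, a carcinoma line from the mouse mammary gland, after 24 h of culture with macrophages. The 10 members were taken by gene symbol from the deposited expression table, out of 23385 genes measured on clusters with 1 symbol, and each gene was represented by its brightest transcript cluster, the set of probes that the array summarises for a gene. They comprise 3 anti-apoptotic genes (Bcl2, Bcl2l1 and Mcl1), 3 effectors (Bax, Bak1 and Bok) and 4 genes of the BH3-only class (Bid, Bbc3, Pmaip1 and Bcl2l11). All 10 were present, and the main fit applied no filter on low values.

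In both groups the tumour cells were the same line, labelled triple negative for HER, PR and ER, and the macrophages were derived from mouse bone marrow. The groups differed in the state to which these macrophages had been polarised: pro-inflammatory (PI, 3 arrays) or anti-inflammatory (AI, 3 arrays). Each replicate used macrophages of an individual mouse, cells carrying CD11b were depleted on a column, and RNA of the remaining tumour fraction was hybridised. The agents used for polarisation and the strain and age of the mice are not stated in the labels. No array of 4T1 cells grown without macrophages was compared, so a difference between PI and AI does not tell which co-culture moved a gene. Because RNA was measured in bulk, fewer cells of a type and less RNA per cell cannot be told apart.

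BCL2 family proteins decide whether the outer membrane of the mitochondrion is breached, the committed step of the intrinsic pathway of apoptosis. BAX and BAK assemble into pores that release cytochrome c, anti-apoptotic members hold them in check, and BH3-only proteins relay stress signals by binding the anti-apoptotic members or by activating the effectors directly. Much of this control acts on the proteins, through their stability, cleavage and binding, and is not read by an expression array.

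All levels are RMA values on the log2 scale, and all differences are PI minus AI on that scale. Probe sets differ in how strongly they bind, so differences between the levels of genes were not read as differences in RNA, and percentiles of mean level are given only to place a signal between dim and bright. Any pair of arrays correlated at 0.987 to 0.990 over all transcript clusters. The 10 epithelial markers lay at percentiles 41.8 to 98.6 of all genes by mean level. Krt8 and Krt18 were the brightest at 98.1 and 98.6, and Cldn7 was the dimmest at 41.8. Signals of Pgr, Esr1 and Erbb2 lay at percentiles 18.2, 56.0 and 80.5, which do not show whether these receptors were expressed. Of 12 macrophage markers, 0 passed the test and 2 had an unadjusted p under 0.05 (Mpeg1 at 0.58 and Cd14 at -0.23). Over all genes, 7.36% had such a p. By mean level the 12 markers lay from percentile 14.4, that of the depletion target Itgam, to 85.1 for Cd14, with Cd68 at 76.7. These levels do not show how complete the depletion was.

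No member passed an adjusted p of 0.05 in limma, adjusted over all genes, against 0.0727% of the genes tested (17 of 23385, all higher in PI). That count over all genes was itself unstable: leaving out PI replicate 2 gave 1 gene, leaving out PI replicate 3 gave 4, and dropping either the first or the third AI array gave 7. The member that came nearest was Bok, which was lower in PI by 0.43 and had the only unadjusted p under 0.05 of the 10, where 7.36% of all genes had one (3.31% on the lower side). Differences were positive for 5 members and negative for 5, with a median of 0.01 against -0.01 over all genes. The 3 PI arrays did not overlap the 3 AI arrays for 3 of 10 members, Bcl2l1 and Bcl2l11 above and Bok below, where 13.2% of all genes had no overlap (5.85% above and 7.32% below).

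**Figure D1:**
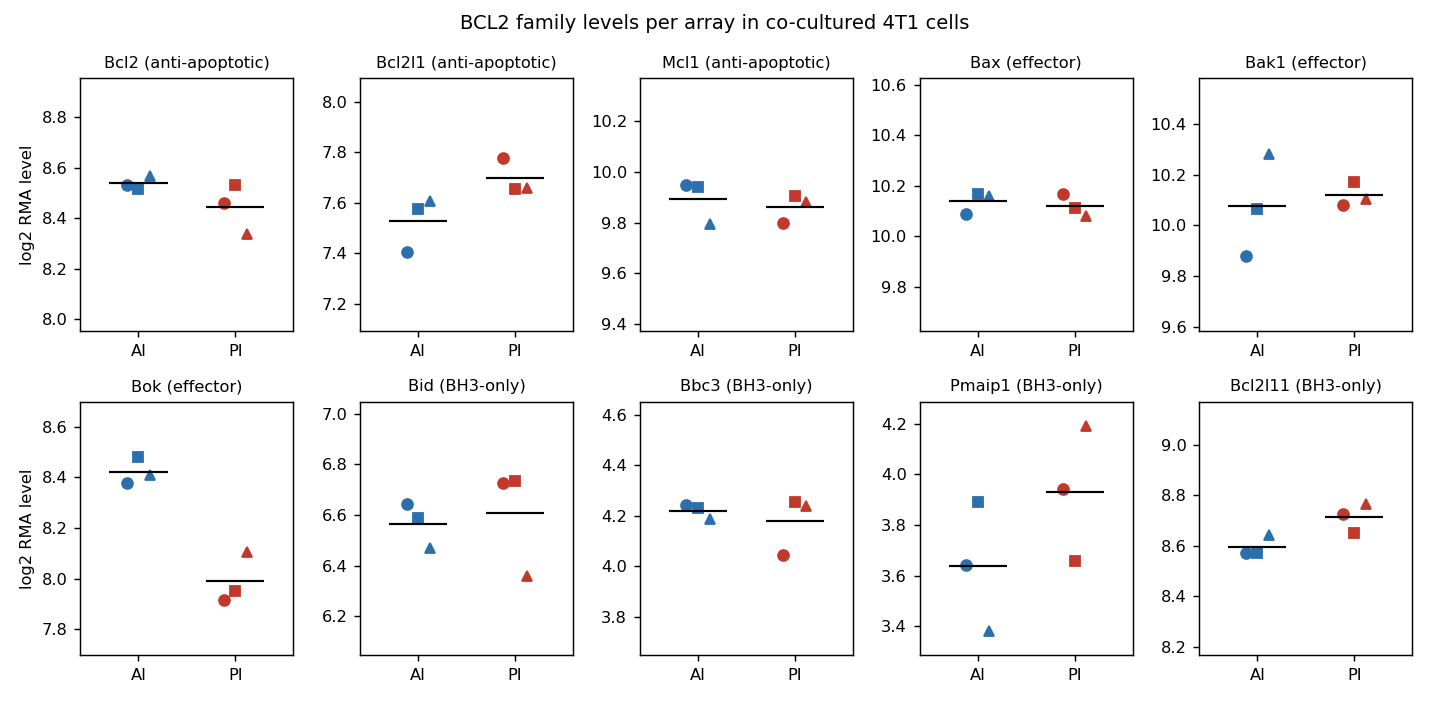
Level of each of the 10 BCL2 family members (vertical axis, log2 RMA level, each panel spanning 1 log2 unit) in the AI (blue) and PI (red) co-cultures. Points are arrays, with circles, squares and triangles for replicates 1, 2 and 3, and lines are group means. Bok has PI arrays at 7.92 to 8.11 and AI arrays at 8.38 to 8.48.

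The effectors are shown with the sequence before their start sites, since Bok and its counterparts Bax and Bak1 share a role but differed in their values. These are the 250 bases upstream of the annotated start in RefSeq on build GRCm38.p6, 5′ to 3′ on the strand of the gene. They lie at chr1:93685325-93685574 on the plus strand for Bok, chr7:45466899-45467148 on the minus strand for Bax, and chr17:27028628-27028877 on the minus strand for Bak1. Capitals mark matches to the GC box and the E-box, as spelled out after the sequences.
Bok: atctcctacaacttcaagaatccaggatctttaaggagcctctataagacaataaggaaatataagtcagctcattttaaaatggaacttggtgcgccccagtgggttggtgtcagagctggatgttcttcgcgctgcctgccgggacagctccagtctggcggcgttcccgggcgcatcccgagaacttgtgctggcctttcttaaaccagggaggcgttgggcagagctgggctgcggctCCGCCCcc
Bax: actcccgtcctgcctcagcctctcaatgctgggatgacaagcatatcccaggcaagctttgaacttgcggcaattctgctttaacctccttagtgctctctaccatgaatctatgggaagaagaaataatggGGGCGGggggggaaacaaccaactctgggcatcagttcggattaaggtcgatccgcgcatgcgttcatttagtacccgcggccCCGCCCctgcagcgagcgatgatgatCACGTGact
Bak1: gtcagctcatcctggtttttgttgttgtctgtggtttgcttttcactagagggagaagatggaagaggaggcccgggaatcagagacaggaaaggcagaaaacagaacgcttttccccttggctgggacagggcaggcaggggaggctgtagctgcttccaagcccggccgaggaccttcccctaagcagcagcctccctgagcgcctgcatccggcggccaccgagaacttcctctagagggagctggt

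The windows were searched on both strands for 6 motifs. The GC box (GGGCGG), bound by SP1-like factors, matched 1 time in the Bok window, 2 times in that of Bax and 0 times in that of Bak1, while 32.74% of all 32851 promoter windows held a match. Bax alone of the 3 held an E-box (CACGTG, 6.02% of windows), with 1 match. None of the 3 windows held the interferon-gamma-activated site (GAS, TTCNNNGAA, 7.02% of windows), the core of the interferon-stimulated response element (ISRE, GAAANNGAA, 7.13%), a CCAAT box (CCAAT, 33.85%) or a TATA box (TATAAA, 12.37%). Across the family, 9 of 10 genes had a window in the table, 14 windows in all because several genes have more than 1 start, and 0 of the 14 held a GAS or ISRE core match. GC content was 55.2% for Bok, 54.0% for Bax and 58.4% for Bak1, against a median of 52.4% over all windows.

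Bok encodes a BAX-like protein that can permeabilise the mitochondrial outer membrane without activation by BH3-only proteins and is kept low by degradation after ubiquitination. Its transcript cluster (17216063, Entrez 51800) had levels of 7.92, 7.95 and 8.11 in the PI arrays and 8.38, 8.48 and 8.41 in the AI arrays. Every PI array therefore lay under every AI array, with a gap between the groups larger than the range within either. Group means were 7.99 ± 0.10 in PI and 8.42 ± 0.05 in AI (SD, n = 3 each). The difference was -0.43 with a standard error of 0.09 and a 95% interval of -0.63 to -0.23, which is a level 1.35-fold higher in AI, with an interval of 1.18-fold to 1.55-fold. It did not pass in limma (unadjusted p = 0.00116, adjusted p = 0.333), and it ranked at 80 of all 23385 genes by p. A difference of this size or larger was found in 1.83% of all genes. In the authors' deposited table the fold of AI over PI was 1.35, with a p-value of 0.00283 and a q-value of 0.580. An unmoderated test of the same values gave the same p-value. The call depended on the variance model, since a limma fit with robust variances that follow intensity gave Bok an adjusted p of 0.0381 in a fit that called 76 of 23385 genes (7 of them lower in PI), while the other alternatives gave adjusted p from 0.0995 to 0.717 with the same direction.

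Of 10 epithelial markers, 0 passed the test, 1 had an unadjusted p under 0.05 and 6 had negative differences, with a median of -0.14. Groups did not overlap for 3 of the 10, all lower in PI, beside 7.32% of all genes on that side. Over all genes, 7.36% had an unadjusted p under 0.05 and 12316 of 23385 were lower in PI. The summed level of the 10 markers was 66.43 to 67.71 in PI and 67.43 to 68.63 in AI. Named first are the 3 without overlap. These were Krt14 with a difference of -0.41, Epcam with -0.19 and Krt8 with -0.11, none past the test. The 4 positive differences were 0.06 for Krt19, 0.05 for Cldn7, 0.0025 for Cldn4 and 0.0024 for Cldn3. Macrophage markers had a summed level of 53.52 to 54.58 in PI and 52.77 to 54.41 in AI. Their median difference was 0.02 over 12 markers. The 3 neutrophil markers had values of 0.45 for S100a8, 0.0073 for S100a9 and -0.06 for Ly6g. Of these 3, 0 passed the test and 1, S100a8, had an unadjusted p under 0.05. All PI arrays of S100a8 lay above all AI arrays, beside 5.85% of all genes on that side. The part of these markers in the Bok result was not tested.

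The other effectors showed no such separation. Bax encodes a soluble effector that moves to mitochondria on activation, and its levels (cluster 17490839) were 10.17, 10.11 and 10.08 in PI and 10.09, 10.17 and 10.16 in AI. The groups overlapped almost fully. The difference for Bax was -0.02 (95% interval -0.19 to 0.16, limma adjusted p = 0.975), so differences beyond about 0.19 in either direction lie outside the interval. Bak1 encodes an effector that already resides in the mitochondrial membrane, and its levels (cluster 17342676) were 10.08, 10.17 and 10.11 in PI and 9.88, 10.07 and 10.28 in AI. The AI arrays spread on both sides of the PI arrays, and the Bak1 difference was 0.04 (95% interval -0.22 to 0.30, limma adjusted p = 0.959). Bok minus Bax, taken within each array, was -2.25, -2.16 and -1.98 in PI and -1.71, -1.69 and -1.75 in AI, a change of -0.41 between groups that do not overlap. For Bok minus Bak1 the change was -0.47, again without overlap. These changes restate the difference of Bok and were given no test.

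Among the anti-apoptotic genes, Bcl2l1, which encodes BCL-XL, was the member with higher values in PI. Its levels (cluster 17392991, Entrez 12048) were 7.78, 7.65 and 7.66 in PI and 7.40, 7.58 and 7.61 in AI. The groups did not overlap, but only 0.05 separated the lowest PI array from the highest AI array. The difference was 0.17 with a standard error of 0.09 and an interval of -0.04 to 0.38, a 1.12-fold higher level in PI, and it did not pass in limma (unadjusted p = 0.0997, adjusted p = 0.738). Without AI replicate 1, the lowest array, it was 0.11.

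Bcl2, the founding member and an anti-apoptotic protein of mitochondria and endoplasmic reticulum, had levels (cluster 17226043) of 8.46, 8.53 and 8.34 in PI and 8.53, 8.52 and 8.57 in AI. PI replicate 3 was the lowest array, without which the difference was -0.04, and PI replicate 2 lay among the AI arrays. The Bcl2 difference was -0.10 (95% interval -0.29 to 0.10, limma adjusted p = 0.834). A dimmer Bcl2 cluster (17216395) had a difference of -0.03 at a mean level of 4.30, and only 1 of 10 neighbouring clusters by number belonged to a gene on the strand of Bcl2, against 10 of 10 for the brighter cluster.

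Mcl1 encodes a short-lived anti-apoptotic protein that must be made continuously. Its brightest cluster (17407826) had levels of 9.80, 9.90 and 9.88 in PI and 9.95, 9.94 and 9.79 in AI, which overlapped. The difference for Mcl1 was -0.03 (95% interval -0.23 to 0.16, limma adjusted p = 0.957). Of the 10 named neighbours of this cluster by number, only 1 lies on the strand of Mcl1 in RefSeq, while all 10 neighbours of the second cluster (17400418) lie on it, and which strand the probes read was not tested. That second cluster had levels of 9.45, 9.54 and 9.56 in PI and 9.55, 9.51 and 9.61 in AI. Its difference was -0.04 (limma adjusted p = 0.933 when it took the place of the brighter one), so both clusters gave overlapping groups. The difference of the brightest cluster was -0.0002 without PI replicate 1 and -0.08 without AI replicate 3.

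**Figure D2:**
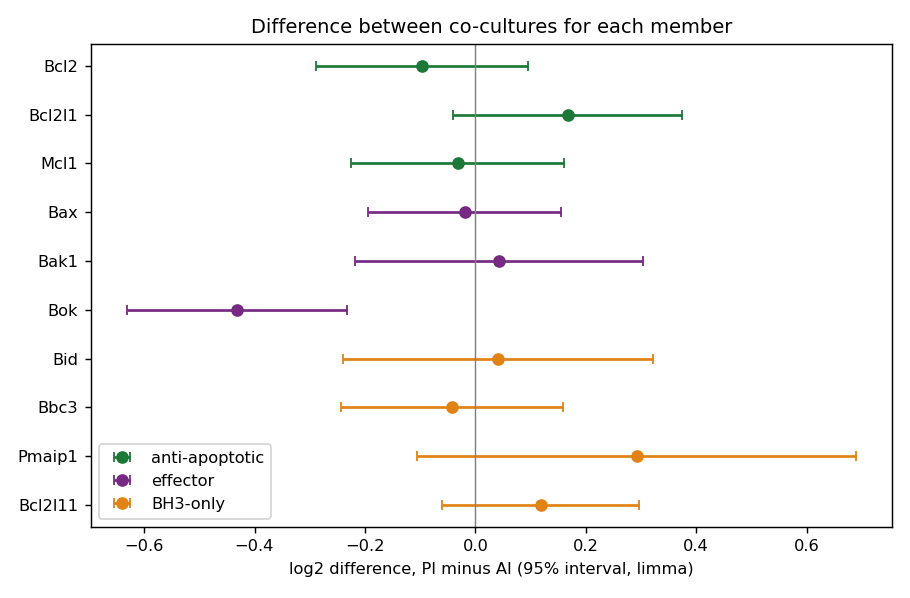
Log2 difference PI minus AI (horizontal axis) of each member, coloured by role, with its 95% interval from limma. The interval of Bok, -0.63 to -0.23, does not include 0, and those of the other 9 members do.

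Bcl2l11, which encodes the BH3-only protein BIM, had levels (cluster 17375961, Entrez 12125) of 8.72, 8.65 and 8.77 in PI and 8.57, 8.57 and 8.64 in AI. All PI values lay above all AI values, by 0.0072 at the closest pair. The difference was 0.12 with a standard error of 0.08 and an interval of -0.06 to 0.30, a 1.09-fold higher level in PI (limma unadjusted p = 0.163, adjusted p = 0.777). In the authors' deposited table Bcl2l11 had a p-value of 0.0463 and a q-value of 0.771. That p-value was also given by an unmoderated test of the same values.

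Pmaip1, which encodes NOXA, a BH3-only partner of MCL1, had the largest positive difference of the 10 members but also the widest interval. Its levels (cluster 17351414) were 3.94, 3.66 and 4.19 in PI and 3.64, 3.89 and 3.38 in AI, so the groups overlapped. The Pmaip1 difference was 0.29 (95% interval -0.11 to 0.69, limma adjusted p = 0.752), at percentile 35.0 of all genes by mean level. Its value ranged from 0.16 to 0.43 when each array was left out in turn. It was 0.16 without PI replicate 3 and without AI replicate 3, and 0.42 without AI replicate 2.

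Bbc3, which encodes PUMA, a p53-responsive BH3-only protein, was dim as well, at percentile 43.1, with levels of 4.05, 4.25 and 4.24 in PI and 4.24, 4.23 and 4.19 in AI. Its groups overlapped, and the difference was -0.04 (95% interval -0.24 to 0.16, limma adjusted p = 0.942). Bid is cut by caspase-8 and so links death receptors to mitochondria. It had levels of 6.73, 6.73 and 6.36 in PI and 6.64, 6.59 and 6.47 in AI, with PI arrays on both sides of the AI arrays, and a difference of 0.04 (95% interval -0.24 to 0.32, limma adjusted p = 0.963). Of the BH3-only class, 3 of 4 differences were positive, with a median of 0.08, and 0 of 4 passed.

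To set the classes against each other, the mean log2 level of each class was taken in each array and the classes were subtracted. Only the change of these values between groups can be read, and as scores over chosen members they were given no test. Anti-apoptotic minus effector genes was -0.71, -0.71 and -0.81 in PI and -0.82, -0.89 and -0.96 in AI. All PI values lay above all AI values, with a change of 0.15. This separation came with Bok: when the effectors were Bax and Bak1 alone, the values were -1.45, -1.44 and -1.47 in PI and -1.36, -1.44 and -1.57 in AI, with a change of 0.0014 and overlapping groups.

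Effector minus BH3-only genes was 3.53, 3.59 and 3.54 in PI and 3.67, 3.75 and 3.95 in AI. The groups did not overlap, and the change was -0.24, or -0.09 with overlap without Bok. Anti-apoptotic minus BH3-only genes overlapped, with 2.82, 2.87 and 2.74 in PI against 2.85, 2.86 and 2.99 in AI, and a change of -0.09. By class, the mean level differed by 0.01 for the anti-apoptotic genes, by -0.14 for the effectors and by 0.10 for the BH3-only genes. The anti-apoptotic mean overlapped between groups. The effector mean was lower in all PI arrays, by 0.0175 at the closest pair. The BH3-only mean was higher in all PI arrays, by only 0.0026 at the closest pair. For Bax and Bak1 without Bok the mean level differed by 0.01, with overlap. The largest value in the BH3-only class was that of the dim gene Pmaip1, 0.29 with overlapping groups.

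**Figure D3:**
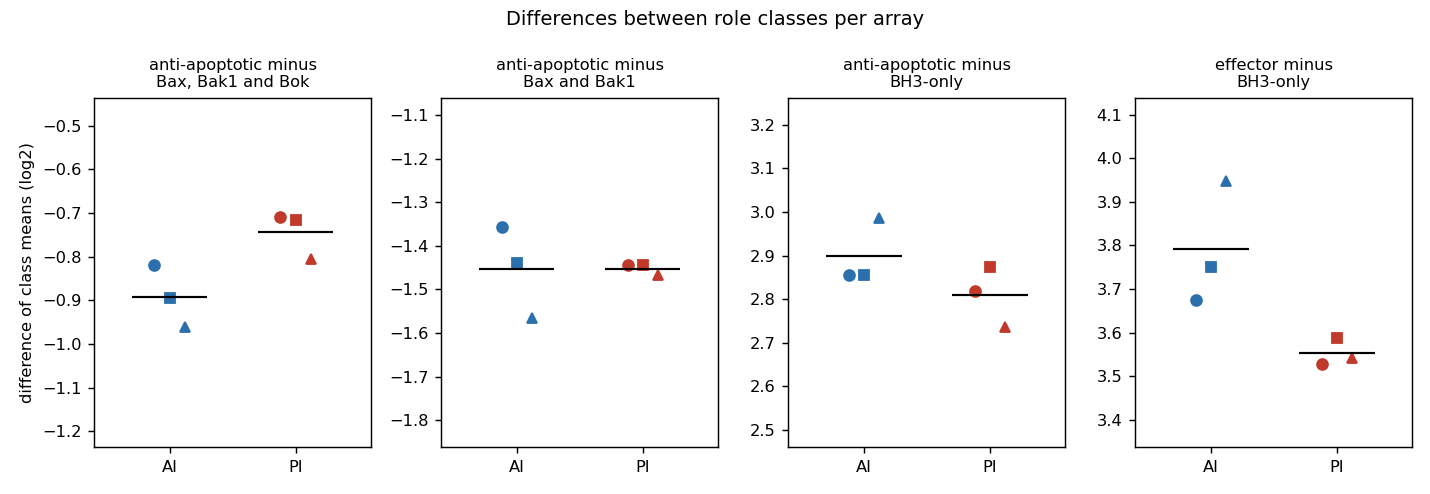
Difference between the mean log2 levels of role classes (vertical axis, each panel spanning the same range) in AI (blue) and PI (red) arrays, with circles, squares and triangles for replicates 1, 2 and 3 and lines for group means. Anti-apoptotic minus effector values separate by group with Bok (change 0.15) and overlap without it (change 0.0014).

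Single pairs of opposing members are often read as a ratio. Of the 18 pairs of an anti-apoptotic gene with an effector or BH3-only gene other than Bok, 16 overlapped between groups and 2 did not. Over all genes taken singly, 13.2% had no overlap, and the share over all pairs of genes was not computed. All 3 pairs with Bok had no overlap, but they share its values and restate its difference. No pair was tested. Bcl2 minus Bax was -1.71, -1.58 and -1.74 in PI and -1.56, -1.65 and -1.59 in AI, overlapping, with a change of -0.08. Bcl2l1 minus Bax was -2.39, -2.46 and -2.42 in PI and -2.68, -2.59 and -2.55 in AI, with a change of 0.19 and no overlap. Both changes largely restate the differences of opposite sign of Bcl2 (-0.10) and Bcl2l1 (0.17), as Bax differed by -0.02. Neither gene passed the test. Mcl1 minus Pmaip1, a pair that binds at the protein level, overlapped, with a change of -0.32. Pairs with Mcl1 used its brightest cluster. For Bcl2 minus Bcl2l11 the change was -0.21 with no overlap, from values of -0.27, -0.12 and -0.43 in PI and -0.04, -0.06 and -0.08 in AI. Bcl2l1 and Mcl1 overlapped against Bcl2l11, with changes of 0.05 and -0.15.

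Outside the family, the genes whose level followed Bok most closely over the 6 arrays were ranked by the root mean square difference between mean-centred log2 profiles. The ranking took genes above the median level that were neither predicted genes nor members of the family. Ephx1, an epoxide hydrolase, was closest at 0.0602, followed by Spryd4 at 0.0606 and Pebp1, a RAF kinase inhibitor protein, at 0.0638. Their own differences were -0.50, -0.40 and -0.33, none past the test. They were chosen for this likeness, which is a description of these 6 arrays.

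The search was widened to further BCL2-related genes and then to other lists. Counts in each list stand beside these shares over all genes. An unadjusted p under 0.05 was found in 7.36%, and 12316 of 23385 genes were lower in PI. Of 17 BCL2-related genes written in the first list, 13 were measured alone. The other 4 (Bcl2a1b, Bcl2a1d, Bcl2l12 and Bnip3l) lay only on clusters shared with other genes. None of the 13 rose or fell in limma, 5 had positive and 8 negative differences, and 1 had an unadjusted p under 0.05, with a median of 0.00. The smallest p belonged to Bnip1, a SNARE protein of the endoplasmic reticulum, with 7.69 ± 0.07 in PI and 7.91 ± 0.13 in AI (SD, n = 3 each), a difference of -0.22 (limma adjusted p = 0.670). Values were 0.29 for the BH3-only gene Hrk at percentile 14.4, 0.15 for the BH3-only gene Bik and -0.07 for Bcl2l2, which encodes the anti-apoptotic BCL-W.

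Downstream of the mitochondrion, 0 of 13 genes of cytochrome c, the apoptosome and the executioners passed in limma and 2 had an unadjusted p under 0.05, with 9 positive and 4 negative differences and a median of 0.02. Endog, a mitochondrial nuclease, had levels of 7.15 ± 0.03 in PI and 7.50 ± 0.16 in AI (SD, n = 3 each), a difference of -0.35 with all PI arrays under all AI arrays (limma adjusted p = 0.534). Apaf1, the scaffold of the apoptosome, had a value of 0.18 and the protease Htra2 of -0.06. Of 5 inhibitor of apoptosis genes, which bind caspases or act in survival signalling and cell division, 0 passed and 0 had an unadjusted p under 0.05, with a median of -0.06 and values of -0.10 for Birc5, 0.10 for Birc3, -0.15 for Birc6 and 0.08 for Birc2.

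Among mitochondrial partners of the family, such as channels and fission and fusion proteins, 13 of 14 were measured alone, 0 passed, 2 had an unadjusted p under 0.05, and 9 of 13 had negative differences, with a median of -0.08. Groups did not overlap for 5 of the 13, all lower in PI, beside 7.32% of all genes on that side, and this list was given no test. Those with the smallest p were Ppif, the cyclophilin of the permeability transition pore, at -0.26, Slc25a5, an ADP/ATP carrier, at -0.20, Timm50, an inner membrane import subunit, at -0.16, and Vdac3, an outer membrane channel, at -0.10. Of 25 regulators of the transcription or stability of members, 0 passed and 3 had an unadjusted p under 0.05, with 9 positive and 16 negative differences and a median of -0.03. Btrc, a ubiquitin ligase subunit, had a value of -0.30, the kinase Mapk10 0.34, the p53 relative Trp73 -0.22 and the stress factor Ddit3, which can induce Bcl2l11, 0.17.

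**Figure D4:**
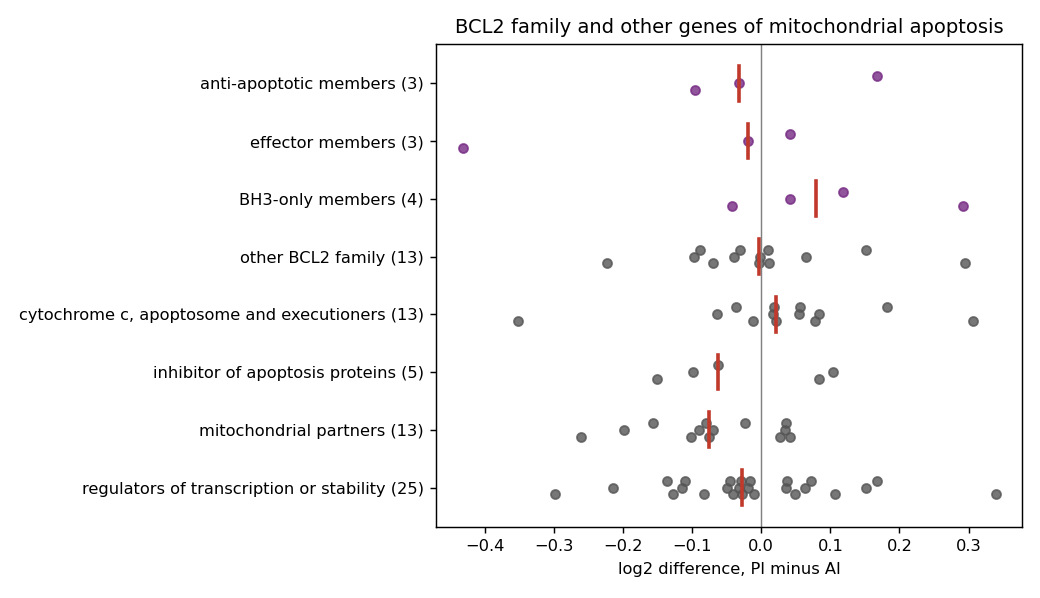
Log2 difference PI minus AI (horizontal axis) of each measured gene in the 3 role classes of the family (purple) and in 5 lists of related genes (grey), with red bars for list medians and the number of genes in brackets. Most points lie within 0.2 of 0, and Bok has the lowest value shown, at -0.43.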

How the data were processed

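Expression was measured on Affymetrix arrays in 3 PI and 3 AI co-cultures, grouped by sample title. The authors deposited log2 expression values per transcript cluster, and the submitters' processing notes name Affymetrix Expression Console and RMA without versions. Both deposited tables held the same values for 41345 clusters (0 differing). Per the file headers, the deposited table carries a p-value, a q-value and a fold per cluster, without naming the test. The fold equalled AI over PI for all 41345 clusters. For the 10 members, the deposited p-values matched those of an unmoderated test of the same values. No source used here gives the array's build.

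Clusters with 1 symbol were kept, symbols were updated through Entrez identifiers (RefSeq, GRCm38.p6), and the brightest cluster per gene was fitted with limma 3.58.1 in R 4.3.3 (lmFit, eBayes, two-sided, Benjamini-Hochberg over 23385 genes), a fit also tested on simulated data. Scores, motif counts and figures used Python 3.11.15, numpy 2.4.6, pandas 2.3.3 and matplotlib 3.10.9. Unused per-sample columns numbered 0. The number of arrays limits the precision, with 95% intervals of the members reaching 0.17 to 0.40 to either side.

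Members and lists were chosen with earlier results of these data known. All 10 members were named, with up to 4 genes of smallest p per related list and the 3 genes most like the member of smallest p. A gene that this rule takes is not reported here. Marker genes, and genes listed as sharing clusters, are named besides. Alternatives covered normalisation, clusters, filters, variance models, pairing and left-out arrays.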

Additional observations from a re-analysis of the deposited data

How the results depend on the processing

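Of 18 alternatives, 17 left 0 members past the threshold. A limma fit with robust variances that follow intensity gave 1, Bok (adjusted p = 0.0381), and the cause was not tested. Over all genes that fit called 76 (69 higher, 7 lower) against 17, and the count was 42 among genes above the median level and at an adjusted p under 0.1 (2 lower in each), 4 with dim values floored (1 lower), 2 in an unmoderated test (both lower), 1 with the block, 8 with all clusters tested and 1 to 14 with arrays left out. Bok kept its direction in all 17 alternatives that gave it a value, from -0.49 to -0.39. Bcl2, Bcl2l1, Mcl1, Pmaip1 and Bcl2l11 also kept theirs and never passed, although with arrays left out Bcl2 ranged from -0.14 to -0.04 and Mcl1 from -0.083 to -0.0002. Other members near 0 changed sign: Bax to 0.0028 after cyclic loess, and, when each array was left out in turn, Bax ranged from -0.044 to 0.00, Bak1 from -0.056 to 0.15, Bid from -0.023 to 0.16 and Bbc3 from -0.079 to 0.024.

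The family median of 0.01 became -0.027 after array centring, 0.034 after cyclic loess and 0.041 without Bok, and ranged from -0.019 to 0.025 with arrays left out. Array centring moved the median of all genes from -0.01 to -0.05. The change of anti-apoptotic minus effector genes was 0.0014 with effectors without Bok, and 0.11 to 0.19 with arrays left out. For effector minus BH3-only genes it was -0.091 without Bok and -0.30 to -0.16 with arrays left out. For anti-apoptotic minus BH3-only genes it was -0.12 to -0.05. With the second Mcl1 cluster, anti-apoptotic minus effector genes changed by 0.146 and anti-apoptotic minus BH3-only genes by -0.092. Classes without Bok, without BH3-only genes below the median level, and with the second Mcl1 cluster were chosen after seeing the data. Among genes above the median level, Bbc3 and Pmaip1 have no value.

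With the replicate number as a block, 0 members passed and Bok had an adjusted p of 0.611. The labels do not say that equal numbers share a mouse. Deviations from group means correlated at 0.041, 0.006 and 0.057 between arrays of the same number and at -0.075 to 0.038 otherwise, so the numbers were not taken as pairs.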
